A study of Mus musculus with 33 samples.

Results

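Il6 and Il10 encode a pair of cytokines that innate immune cells and B cells secrete after sensing microbial DNA. They were followed here in mouse spleen cells given immunostimulatory DNA. The genes were taken as the probes that the platform annotation names Il6 or Il10. They are 2 of 9672 named genes with a value, each is represented by 1 probe, and both probes were measured on 33 of 33 arrays. Il6 (Entrez 16193) lies at chr5:30013114-30019975 and Il10 (Entrez 16153) at chr1:131019845-131024970 in the mouse assembly GRCm38.p6, per RefSeq.

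All cultures were single-cell suspensions of whole spleen from female BALB/c mice aged 2 months, kept at 37 °C in complete medium for 2, 4 or 8 h. Cells received 1 uM of a CpG oligodeoxynucleotide (ODN), which was an equimolar mixture of CpG ODN 1555 and 1466; 1 uM of a control ODN mixture of 1612 and 1471, which lacks CpG motifs; or medium alone. Each of these 9 groups had 4 arrays at 2 h and at 4 h and 3 arrays at 8 h. Cy5-labelled spleen cell cDNA was hybridised together with a common Cy3-labelled reference, Universal Mouse Reference RNA. Every value is the log2 ratio of spleen cells over that reference after centring each array on its median. The submitters describe the repeats as independent experiments, but the labels do not say whether animals were pooled, so p-values measure the spread between these arrays.

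Interleukin-6 drives fever, acute-phase protein synthesis, B cell maturation and T cell differentiation. It binds the receptor chain encoded by Il6ra and signals through the shared chain encoded by Il6st to Jak kinases and the transcription factor Stat3. Interleukin-10 signals through Il10ra and Il10rb, also to Stat3, and restrains inflammatory cytokine production by macrophages and dendritic cells. CpG DNA is sensed in endosomes by Toll-like receptor 9, which activates NF-kB and MAP kinases. In the mouse spleen this receptor is found in B cells and dendritic cells, among others. Both cytokine genes are known targets of these pathways.

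The stretch before the Il6 start site is shown because families of transcription factors named below, such as AP-1, are known to act there. The 250 bases at chr5:30012864-30013113 (GRCm38.p6, plus strand, from RefSeq) read as follows, with capitals marking the motif matches found in this window.

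Il6 promoter: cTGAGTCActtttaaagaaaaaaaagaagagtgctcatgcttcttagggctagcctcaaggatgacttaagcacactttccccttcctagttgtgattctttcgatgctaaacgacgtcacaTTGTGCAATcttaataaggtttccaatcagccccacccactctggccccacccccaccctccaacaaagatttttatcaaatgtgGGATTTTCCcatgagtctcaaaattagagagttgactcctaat

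An NF-kB motif (GGANNTTCC, searched on both strands) lay 43 to 35 bases before the start, and 3.59% of 32536 mouse promoters of this length hold one. An AP-1 motif (TGANTCA), the element bound by Jun and Fos proteins, lay 249 to 243 bases before the start and occurs in 6.73% of promoters. A C/EBP motif (TTNNGCAAT) lay 128 to 120 bases before the start and occurs in 1.94%. The letters of a CRE (TGACGTCA, 1.56% of promoters), a GAS element (TTCNNNGAA, 7.04%), a GC box (GGGCGG, 32.97%) and a TATA box (TATAAA, 12.3%) were not in this window. The matches overlap no other motif searched, and they are matches of letters, not measured sites. Sequence was matched for 1 of the 2 genes, Il6.

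The arrays carried the lymphocyte signature that spleen should have. The median over B cell markers of their median log2 ratio was 2.82 and over T cell markers 2.21, against -0.37 for markers of tissues outside the spleen. Between 7908 and 11129 of 16720 probes had a value on an array. The labels' array identifiers fall in 2 ranges, and the 4 arrays of the lower range are CpG ODN replicate 1 and control ODN replicates 1 and 2 at 2 h and medium replicate 1 at 4 h; no label says what the ranges stand for, and none of these arrays is at 8 h.

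Il6 climbed stepwise with CpG ODN and stayed low without it. At 2 h its log2 ratio was 1.31, 0.71, 1.21 and 1.32 in CpG ODN replicates 1 to 4. It was 0.71, 0.72, 0.34 and 0.90 with control ODN and 0.69, 1.36, 0.97 and 1.11 in medium. These 3 groups overlapped, with 1 CpG ODN array as low as the control ODN arrays. At 4 h the CpG ODN arrays read 2.10, 1.65, 2.42 and 2.25. Control ODN gave 1.26, 0.92, 0.70 and 0.80 and medium 0.96, 0.82, 1.06 and 1.16, so every CpG ODN array lay above all 8 others at that time. At 8 h the CpG ODN arrays stood at 3.95, 4.03 and 4.17. Control ODN was at 0.42, 0.08 and -0.33 and medium at 0.34, 0.88 and 0.11, and the gap between the lowest CpG ODN array and the highest other array was the widest of the course.

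Il10 showed no such step at 4 h and was set apart only at 8 h. Its log2 ratio at 2 h was -0.77, -1.75, -0.57 and 0.27 with CpG ODN. The control ODN arrays read -0.56, -0.80, 0.06 and -0.73 and the medium arrays -0.43, -1.29, -0.68 and -1.26. CpG ODN replicates 2 and 4 were the lowest and the highest of these 12 arrays, so the CpG ODN group spanned both others. At 4 h CpG ODN gave -0.65, -0.57, -0.35 and -0.56, which lay inside the span of the control ODN arrays at -0.23, -0.66, -0.42 and -0.01. Medium at 4 h gave -1.31, -1.38, -1.09 and -0.13. At 8 h CpG ODN gave 1.14, 0.14 and 1.05 against -1.16, -0.89 and -0.94 with control ODN and -1.27, -0.69 and 0.50 in medium. All 3 CpG ODN arrays were above all 3 control ODN arrays, whereas medium replicate 3 was above CpG ODN replicate 2.

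**Figure D1:**
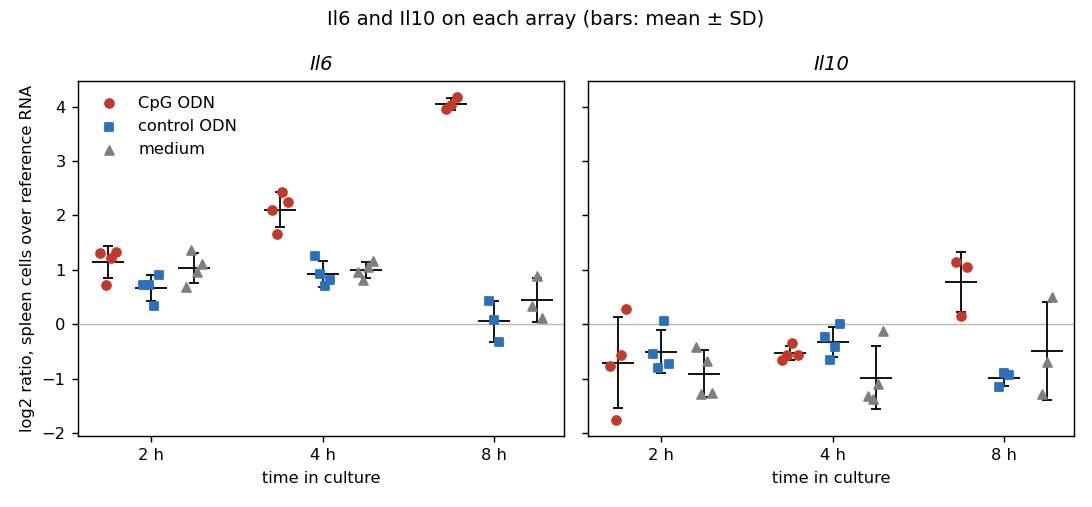
Each point is 1 array, and the y axis gives its log2 ratio of spleen cells over reference RNA for Il6 (left) and Il10 (right) by time in culture; bars are the mean ± SD of the 4 (2 and 4 h) or 3 (8 h) arrays. Il6 with CpG ODN separates from both other groups at 4 h and reaches 3.95 to 4.17 at 8 h, while Il10 with CpG ODN leaves the control ODN range only at 8 h and still overlaps medium.

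Ranked over the 9 groups, Il6 was highest with CpG ODN at 8 h (4.05 ± 0.11, SD, n = 3), then with CpG ODN at 4 h (2.11 ± 0.33, SD, n = 4) and at 2 h (1.14 ± 0.29). Medium at 2 h (1.03 ± 0.28) and 4 h (1.00 ± 0.15), control ODN at 4 h (0.92 ± 0.24) and 2 h (0.67 ± 0.24), medium at 8 h (0.44 ± 0.40) and control ODN at 8 h (0.06 ± 0.38) followed. Only the first 2 steps of this order separate groups whose arrays do not overlap. For Il10 the order began with CpG ODN at 8 h (0.78 ± 0.55, n = 3), followed by control ODN at 4 h (-0.33 ± 0.28), medium at 8 h (-0.49 ± 0.90), control ODN at 2 h (-0.51 ± 0.39) and CpG ODN at 4 h (-0.53 ± 0.13). CpG ODN at 2 h (-0.71 ± 0.83), medium at 2 h (-0.91 ± 0.43) and 4 h (-0.98 ± 0.58) and control ODN at 8 h (-0.997 ± 0.14) closed it. Here only the first step, from CpG ODN at 8 h to control ODN at 4 h, separates neighbours whose arrays do not overlap, and medium at 8 h overlapped the top group.

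The comparison with the control ODN asks what the CpG motifs add to the effect of any ODN. At 2 h neither gene passed the test, which was limma's moderated test with Benjamini-Hochberg adjustment over all genes tested and a threshold of 0.05. Il6 differed by 0.47 ± 0.20 (SE, log2, n = 4 against 4; 95% interval 0.05 to 0.89, unadjusted p = 0.0280, adjusted p = 1.00) and Il10 by -0.20 ± 0.35 (interval -0.92 to 0.51). At that time 0.0430% of all 9302 genes tested were called, so hardly any gene passed.

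At 4 h Il6 rose by 1.18 ± 0.20 over the control ODN (SE, log2, n = 4 against 4, limma adjusted p = 0.00226), a 2.27-fold difference and the 38th largest rise among 9630 genes. Il10 differed by -0.20 ± 0.35 with an interval of -0.92 to 0.51, so a rise of 1 log2 unit lies outside that interval. Of all genes 0.384% were called at 4 h. Fitted on the arrays of the 2 compared groups alone, Il6 had the same difference with an adjusted p of 0.0838.

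At 8 h both cytokines rose. Il6 was 4.00 ± 0.24 higher than with the control ODN (SE, log2, n = 3 against 3; 16.0-fold; interval 3.51 to 4.48; limma adjusted p = 1.91e-13), the 5th largest rise of 9494 genes. Il10 was 1.78 ± 0.40 higher (3.42-fold; interval 0.95 to 2.60; adjusted p = 0.00367) and ranked 101st. By then 10.0% of all genes were called, in either direction, against 0.384% at 4 h. The median gene shifted by -0.12 at 8 h, which is small beside either change. In bulk RNA of this kind, more cells that express a gene and more RNA per cell cannot be told apart.

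Medium alone sets apart what culture does without any ODN. Against it Il6 differed at 2 h by 0.11 ± 0.20 and Il10 by 0.20 ± 0.35 (SE, log2, n = 4 against 4), with 0.0420% of genes called. At 4 h Il6 rose by 1.11 ± 0.20 (limma adjusted p = 0.00544) while Il10 stood 0.45 ± 0.35 higher without passing the test (interval -0.27 to 1.16), with 0.218% called. At 8 h Il6 rose by 3.61 ± 0.24 (12.2-fold, adjusted p = 2.37e-12) and Il10 by 1.27 ± 0.40 (2.41-fold, adjusted p = 0.0375), with 11.8% called. Both sets of comparisons share the CpG ODN arrays.

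The Il6 call at 4 h against medium was lost in a limma fit of the 2 groups alone (adjusted p = 0.0990) and without the 4 arrays of the lower identifier range (1.09, adjusted p = 0.0512). The Il10 call at 8 h was lost without CpG ODN replicate 1 (1.09, adjusted p = 0.129), CpG ODN replicate 3 (1.13, 0.123), medium replicate 1 (0.88, 0.170) or medium replicate 2 (1.17, 0.121), and it was 1.76 (adjusted p = 0.00494) without medium replicate 3, the high array.

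**Figure D2:**
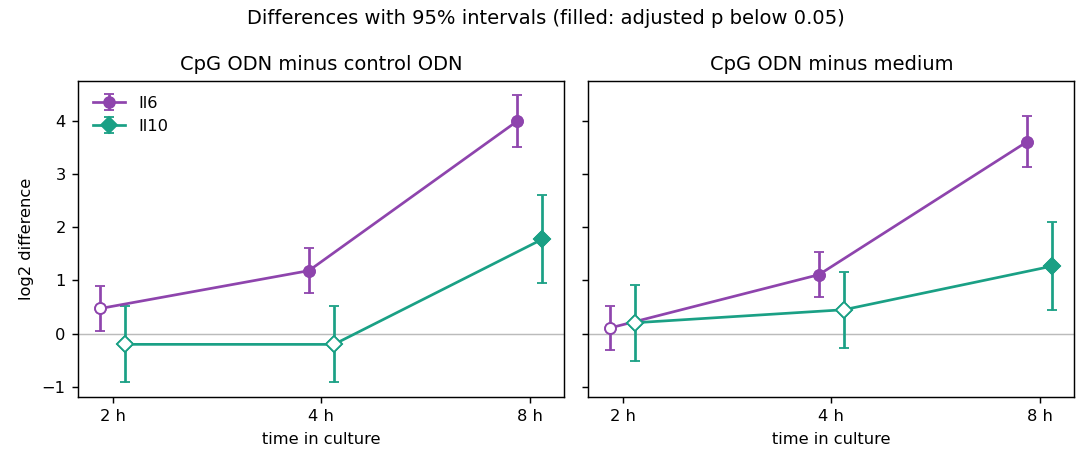
Log2 differences of Il6 and Il10 between CpG ODN and control ODN (left) and between CpG ODN and medium (right) at 2, 4 and 8 h, with 95% intervals from the limma fit; filled symbols have an adjusted p below 0.05. Il6 is called from 4 h on against both groups and reaches 4.00 and 3.61 at 8 h, and Il10 is called at 8 h alone, at 1.78 and 1.27.

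No effect of the control ODN itself on either gene was detected against medium. The differences of control ODN from medium at 2, 4 and 8 h were -0.36, -0.08 and -0.39 for Il6 and 0.41, 0.65 and -0.51 for Il10. None passed the test, and neither did any other gene (0% called at each of the 3 times by limma; 229, 176 and 379 genes had an unadjusted p below 0.05). The nearest to the threshold among the 6 values was Il10 at 4 h (0.65 ± 0.35, SE, n = 4 against 4; limma unadjusted p = 0.0726; interval -0.06 to 1.37).

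Whether the response grew over time was tested as a change of the CpG ODN minus control ODN difference. From 2 to 4 h Il6 gained 0.71 ± 0.29 (SE, log2, limma unadjusted p = 0.0199, adjusted p = 1.00), with 0.0108% of genes called. No change of the Il10 difference was detected over these hours (-8.3e-04 ± 0.50, SE, interval -1.01 to 1.01). A change of up to 1.01 in either direction was therefore not excluded for Il10. From 4 to 8 h the Il6 difference grew by 2.81 ± 0.31 (adjusted p = 8.83e-07) and the Il10 difference by 1.98 ± 0.53 (adjusted p = 0.0457), with 2.08% called. From 2 to 8 h the gains were 3.52 ± 0.31 for Il6 (adjusted p = 5.14e-09) and 1.98 ± 0.53 for Il10 (adjusted p = 0.0326), with 3.26% called. The control ODN mean fell from 0.92 at 4 h to 0.06 at 8 h for Il6, and from -0.33 to -0.997 for Il10. These falls are part of the 4 to 8 h gains and were not tested by themselves.

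The Il10 gains sat close to the threshold. The gain from 4 to 8 h was lost in 12 of 14 limma fits that left out 1 array (1.80 to 2.30 over all 14, adjusted p up to 0.121) and was kept without control ODN replicate 2 at 4 h (0.0447) and without CpG ODN replicate 2 at 8 h (0.0284). The gain from 2 to 8 h was lost in 8 of 14 such fits (1.63 to 2.30 over all 14, adjusted p up to 0.0938), which left out CpG ODN replicates 1 or 2 or control ODN replicate 3 at 2 h, CpG ODN replicates 1 or 3 at 8 h, or any control ODN array at 8 h.

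Within the CpG ODN cultures Il6 rose by 0.97 ± 0.20 from 2 to 4 h (SE, log2; limma adjusted p = 0.0139; 0.966% of genes called) and by a further 1.95 ± 0.22 from 4 to 8 h (adjusted p = 2.96e-07; 8.22% called). Il10 moved by 0.18 ± 0.35 in the first interval (adjusted p = 0.932) and rose by 1.31 ± 0.38 in the second (adjusted p = 0.0263). The Il6 step from 2 to 4 h was lost without CpG ODN replicate 3 (0.86, adjusted p = 0.0530) or 4 (0.92, 0.0651) at 4 h, after quantile normalization (0.80, 0.0555) and in a fit of the 2 groups alone (0.118). The Il10 step from 4 to 8 h was lost without CpG ODN replicates 1 (1.27, 0.0663), 2 (1.30, 0.0514) or 4 (1.30, 0.0506) at 4 h or replicates 1 (1.13, 0.108) or 3 (1.17, 0.138) at 8 h.

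Without CpG ODN, neither cytokine passed the test over the same hours in the fit of all arrays. From 2 to 8 h Il6 moved by -0.61 ± 0.22 with control ODN (SE, log2, n = 3 against 4; limma adjusted p = 0.0772; 10.1% of all genes called) and by -0.59 ± 0.22 in medium (adjusted p = 0.0709; 14.6% called). Il10 moved by -0.49 ± 0.38 with control ODN (adjusted p = 0.484) and by 0.42 ± 0.38 in medium (adjusted p = 0.520). Il6 did pass with control ODN without replicate 3 at 2 h (-0.72, 0.0475) or replicate 1 at 8 h (-0.79, 0.0315), and in medium without replicate 1 at 2 h (-0.71, 0.0387), without replicate 2 at 8 h (-0.81, 0.0266) or with array weights (-0.79, 0.00175). Array weights also brought Il10 in medium past the threshold, at a rise of 0.99 (0.0272), whereas without medium replicate 3 at 8 h its value was -0.071.

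The balance of the 2 cytokines was read as Il6 minus Il10 on the same array, which has no meaning as a level. A constant offset of a probe or dye cancels in its difference between groups, whereas a difference between the probes in how far they compress ratios would not and was not tested. With CpG ODN it was 2.09, 2.47, 1.78 and 1.05 at 2 h, 2.75, 2.22, 2.77 and 2.81 at 4 h, and 2.82, 3.89 and 3.12 at 8 h. With control ODN it was 1.27, 1.52, 0.28 and 1.63 at 2 h, 1.49, 1.58, 1.12 and 0.81 at 4 h, and 1.58, 0.97 and 0.61 at 8 h. The CpG ODN arrays were above every control ODN array at 4 h and at 8 h and overlapped them at 2 h. In medium it was 1.11, 2.65, 1.64 and 2.37 at 2 h, 2.27, 2.20, 2.15 and 1.29 at 4 h, and 1.61, 1.58 and -0.39 at 8 h.

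At 4 h the balance was shifted towards Il6 by 1.39 with CpG ODN against control ODN (exact permutation test over arrays, 2-sided, p = 0.0286, the smallest that 70 splits allow; 0.15 after Benjamini-Hochberg adjustment over the 6 comparisons). Against medium at 4 h the shift was 0.66 (exact p = 0.0571, adjusted 0.15). At 8 h it was 2.22 against control ODN and 2.34 against medium, each with an exact p of 0.1, the smallest possible with 3 arrays against 3, and an adjusted 0.15. At 2 h the values were 0.67 (exact p = 0.2, adjusted 0.24) and -0.10 (exact p = 0.857, adjusted 0.857). None of the 6 passed after adjustment, although the CpG ODN arrays at 8 h overlapped neither group.

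The pathway around the 2 cytokines was described with gene lists, given by their counts and medians. The lists were chosen with earlier results of these data known, so a count above the share of all genes is no test of a list. Against the control ODN at 8 h, all genes had a median of -0.12 and 10.0% were called (432 up and 517 down of 9494), and each count at that time is to be read beside these values. Among 7 tested members of the IL-6 cytokine family, Il6 alone was called at 8 h, with a list median of -0.09; 2 of the 7 were called in either fit with the replicate number as a block. Lif, another ligand that signals through Il6st, stood at -0.68 ± 0.24 (SE, limma adjusted p = 0.0713) and Clcf1, which encodes a cytokine of the same family, at 0.11 ± 0.28. Both are named although the rule for named genes did not pick them, to show the range around Il6. Of the IL-10 family only Il10 was measured.

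The receptor chains of neither cytokine were called. At 8 h Il6ra stood at -0.43 ± 0.29 (SE, log2 against the control ODN), the signal-transducing chain gene Il6st at 0.25 ± 0.52, Il10ra at 0.43 ± 0.62 and Il10rb at -0.20 ± 0.38. Of the 14 tested receptor and signalling genes 3 rose and none fell (median -0.06). Socs1, a feedback inhibitor of Jak kinases, rose by 3.79 ± 0.31 (limma adjusted p = 4.25e-10) after 1.37 ± 0.27 at 4 h (adjusted p = 0.00872, but 0.0539 without CpG ODN replicate 3). Stat3 itself was 1.19 ± 0.31 higher (adjusted p = 0.0129), but this was lost without CpG ODN replicate 3 (0.0556) or control ODN replicate 2 (0.0811). Socs3, the inhibitor that binds Il6st, rose by 0.70 ± 0.23 (adjusted p = 0.0477), and this call was lost in 5 of 6 fits that left out 1 array, with adjusted p up to 0.259, without the 4 arrays of the lower identifier range (0.0667) and in a fit of the 2 groups alone (0.108).

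Some genes listed as regulators of Il6 or Il10 were called before the cytokines were. Knowledge of earlier results of these data when the list was chosen can raise its counts. At 2 h, when 0.0430% of all genes were called, 2 of 27 tested regulators rose, Nfkbiz at 1.91 ± 0.19 and Ptgs2 at 2.35 ± 0.31 (SE, log2 against the control ODN, limma adjusted p = 3.70e-07 and 8.36e-05), when neither cytokine passed. Nfkbiz encodes IkB-zeta, an inducible NF-kB cofactor needed for Il6 transcription, and Ptgs2 the inducible cyclooxygenase. At 4 h 6 of 27 rose, when 0.384% of all genes were called, among them Nfkbiz at 2.27 ± 0.19, Batf, an AP-1 family factor, at 1.95 ± 0.29, and Ptgs2 at 1.74 ± 0.31 (limma adjusted p = 0.0621 for Ptgs2 in a fit of the 2 groups alone). Another was Zc3h12a, chosen after its values were seen because it encodes regnase-1, an RNase that degrades Il6 mRNA. It rose by 1.05 ± 0.20 at 4 h (adjusted p = 0.00670) and stood at 0.37 ± 0.23 at 8 h.

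By 8 h 10 of 28 regulators had risen and 1 had fallen, with a median of 0.61 against -0.12 for all genes. The AP-1 subunit Jun rose by 2.31 ± 0.24, Nfkbiz by 2.31 ± 0.22, Atf3, a repressor of inflammatory genes that is itself induced by Toll-like receptors, by 1.98 ± 0.32, and Batf by 1.57 ± 0.33 (SE, log2 against the control ODN, all limma adjusted p at or below 0.00169). Ptgs2 rose by 1.83 ± 0.36 (adjusted p = 8.64e-04). The 1 gene that fell was Mapk14 at -0.95 ± 0.16 (adjusted p = 1.48e-04), which encodes the p38 alpha kinase that stabilises cytokine mRNAs. Further genes are named for the motifs marked above, not by the rule. Fos (-0.45 ± 0.29) and Junb (0.61 ± 0.24) were not called, nor were the NF-kB genes Rel, Rela, Relb and Nfkb2. Against medium at 8 h Nfkb2 was called (1.01 ± 0.29, limma adjusted p = 0.0181), and Rel, Rela and Relb were not. Nfkbia, on the same list and also named outside the rule, rose over the control ODN by 1.15 ± 0.26 at 8 h (limma adjusted p = 0.00393). Of the C/EBP genes Cebpd rose by 0.91 ± 0.28 (limma adjusted p = 0.0341), and Cebpb at -0.20 ± 0.27 was not called.

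Known STAT3 targets included 7 that rose and 1 that fell out of 16 tested at 8 h (median 0.65). Il1rn, the gene of the interleukin-1 receptor antagonist, rose by 1.69 ± 0.24, the secreted immune regulator Fgl2 by 1.69 ± 0.25, the growth regulator Myc by 1.56 ± 0.29 and the survival kinase Pim1 by 1.30 ± 0.33 (SE, log2 against the control ODN; limma adjusted p = 1.55e-05, 1.67e-05, 3.53e-04 and 0.0102). The 1 that fell was Mcl1 at -0.61 ± 0.20 (adjusted p = 0.0439), an anti-apoptotic gene named here after its value was seen. Many of these genes are also targets of NF-kB or of interferons, so the list does not single out the 2 cytokines. At 4 h Il1rn and Myc had risen, by 1.33 ± 0.24 and 1.22 ± 0.25, and the Myc call was lost in 5 of 8 fits that left out 1 array (1.01 to 1.41, adjusted p up to 0.100). In a fit of the 2 groups alone neither passed (0.120 for Il1rn and 0.304 for Myc). The 8 calls at 8 h became 4 without CpG ODN replicate 2, control ODN replicate 2 or control ODN replicate 3, 5 without CpG ODN replicate 3, and 3 in a fit of the 2 groups alone; the Pim1 call was lost without CpG ODN replicate 2 (1.15, adjusted p = 0.0611) or control ODN replicate 2 (0.82, 0.130) and in a fit of the 2 groups alone (0.0911).

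Among the inflammatory cytokines, Il6 had the largest rise at 8 h but was not called at 2 h, when Tnf was. Tnf, the macrophage cytokine of acute inflammation, had risen by 2.28 ± 0.23 at 2 h and stood at 2.96 ± 0.23 at 4 h and 2.51 ± 0.27 at 8 h (SE, log2 against the control ODN). Il12b, which encodes the larger subunit of interleukin-12, rose by 2.85 ± 0.28 at 4 h and 3.00 ± 0.36 at 8 h (n = 2 against 3), and Csf2, which encodes GM-CSF, by 2.44 ± 0.24 at 8 h (limma adjusted p = 7.71e-08). At 8 h 5 of 12 inflammatory cytokines rose and none fell (median 0.57). The count was 3 without CpG ODN replicate 2 or replicate 3, and 2 among genes measured on all 33 arrays.

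Among anti-inflammatory and type 2 cytokines and decoys, Il10 was 1 of 3 that rose at 8 h out of 11 tested, and none fell (median 0.11). The others were Il1rn and Il18bp, the latter a decoy for interleukin-18, at 1.12 ± 0.27 (SE, log2, limma adjusted p = 0.00694; 0.88 and 0.0703 without CpG ODN replicate 2, and 0.0624 in a fit of the 2 groups alone). Il1rn had been called at 4 h already, when Il10 had not (0.0670 for Il1rn without control ODN replicate 3). Against medium at 8 h, where 11.8% of all genes were called and their median was -0.13, the same lists gave 1 rise of 7 for the IL-6 family (median -0.43), 3 of 14 for receptors and signalling (0.27) and 10 rises and 1 fall of 28 for regulators (0.31). They gave 5 rises of 16 for STAT3 targets (0.61), 5 of 12 for inflammatory (0.88) and 3 of 11 for anti-inflammatory genes (0.19).

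**Figure D3:**
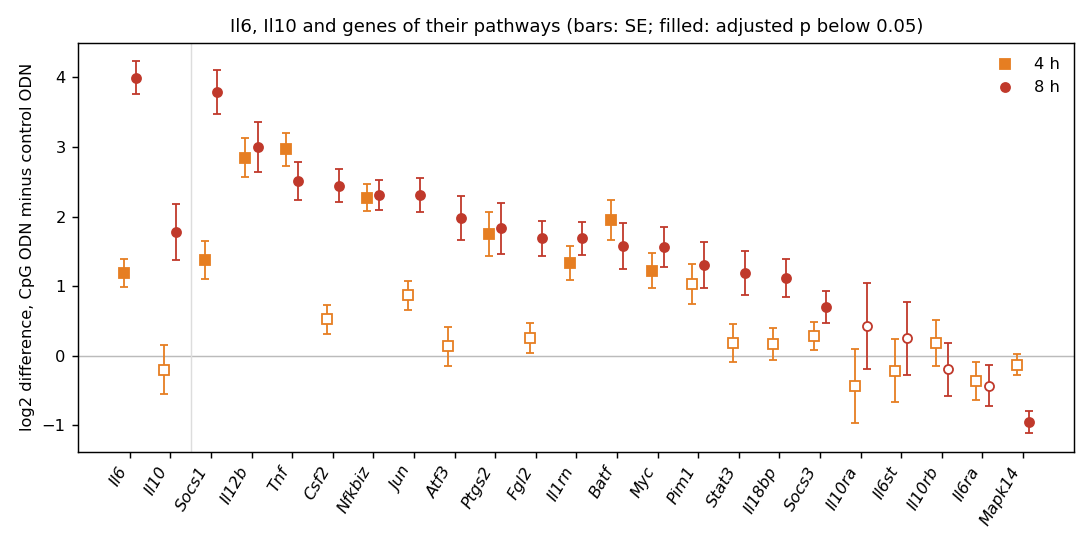
Log2 differences between CpG ODN and control ODN at 4 h (squares) and 8 h (circles) for Il6, Il10 and named genes of their pathways, with SE bars; filled symbols have a limma adjusted p below 0.05. Il6 at 4.00 and Socs1 at 3.79 lead at 8 h, Tnf and Il12b already stand near their 8 h values at 4 h, and the 4 receptor genes Il10ra, Il6st, Il10rb and Il6ra are open symbols at both times.

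Several markers of the cell types in spleen fell at 8 h, when Il6 and Il10 rose, as did 517 of all 9494 genes tested. At 8 h against the control ODN 0 of 14 tested B cell markers rose and 3 fell (median -0.88), led by Fcrla, a B cell Fc receptor-like gene, at -2.18 ± 0.38 and the B cell receptor chain gene Cd79b at -1.87 ± 0.29 (SE, log2). The mean of 8 B cell markers measured on all arrays was 2.35 to 2.93 on CpG ODN arrays, 3.23 to 3.73 with control ODN and 2.89 to 3.98 in medium. At 2 h this mean was 2.58 to 2.94 with CpG ODN, 2.92 to 3.52 with control ODN and 2.90 to 3.61 in medium. At 4 h it was 2.71 to 3.45, 2.67 to 3.06 and 3.01 to 3.55 in the same order. No B cell marker was called against the control ODN at those 2 times. Of 11 T cell markers 4 fell at 8 h and none rose (median -0.80), among them the signalling adaptor gene Lat at -1.20 ± 0.27 and Cd5 at -0.90 ± 0.23. After quantile normalization between arrays Cd5 (-0.73, limma adjusted p = 0.106) and the macrophage marker Vcam1 (-0.75, 0.0526) did not pass, nor did Cd5 (0.0514) and the macrophage marker Cd14 (0.0560) in a fit of the 2 groups alone.

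Of 11 monocyte and macrophage markers 1 rose and 2 fell (median -0.61). The 1 that rose was Fcgr1, at 0.99 ± 0.30 (SE, log2, limma adjusted p = 0.0306) and at 1.25 ± 0.30 against medium. It is named because it went the other way, not by the rule. The endotoxin co-receptor gene Cd14 was at -1.53 ± 0.30 and the adhesion molecule gene Vcam1 at -1.01 ± 0.24, and the mean of 6 such markers was -0.99 to -0.23 with CpG ODN against -0.40 to 0.29 with control ODN and -0.58 to 0.12 in medium. None of 5 dendritic cell markers, 8 neutrophil markers or 3 markers of regulatory and type 2 T cells was called, although the neutrophil gene S100a8 stood at -1.02 ± 0.34 (adjusted p = 0.0571). Of 6 plasma cell markers Irf4, an activation-induced transcription factor, rose by 1.36 ± 0.31 and the antibody joining chain gene Jchain fell by 0.73 ± 0.22 (a call lost without CpG ODN replicate 2, -0.54, or control ODN replicate 1, -0.57, or 2, -0.65, after quantile normalization, adjusted p = 0.0761, and in a limma fit of the 2 groups alone, 0.158), and of 7 NK cell markers 1 rose, the granzyme gene Gzmb, by 1.83 ± 0.40. None of 11 markers of tissues outside the spleen was called.

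Against medium at 8 h, with 11.8% of all genes called, 3 of 14 B cell markers fell (median -0.39), 1 of 11 T cell markers fell (-0.53), and 1 of 12 monocyte and macrophage markers rose and 2 fell (-0.37). Of 8 neutrophil markers 1 fell (median -0.56), S100a8, an antimicrobial calcium-binding protein gene, by 1.56 ± 0.34 (SE, log2, limma adjusted p = 0.00225); it is named because it was the single neutrophil call, not by the rule. Of 7 NK cell markers 1 rose (0.18), and of 6 plasma cell markers 1 rose and 1 fell (-0.57). None of 5 dendritic cell markers, 3 regulatory and type 2 T cell markers or 11 markers of tissues outside the spleen was called. The part of cell composition in the Il6 and Il10 values was not tested.

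Genes whose course resembled each cytokine most were found by Pearson correlation over arrays, among 7365 genes measured on at least 30 arrays. The arrays share groups, controls and reference, and the 3 CpG ODN arrays at 8 h weigh heavily, so each value is also given without them and no p is attached. For Il6 the closest were Cxcl10, an interferon-inducible chemokine (r = 0.94 over 31 arrays, 0.77 without the CpG ODN arrays at 8 h), Jun (0.92, 0.78), Isg15, a ubiquitin-like antiviral gene (0.91, 0.72), Mfsd2a, a lipid transporter (0.90, 0.65), and Ifit1, an antiviral gene (0.90, 0.61). The most opposed were Mapk14 (-0.86, -0.57) and Dnase1l1 (-0.85, -0.50). Cxcl10 had the largest rise of these at 8 h, 4.96 against the control ODN, beside 4.00 for Il6.

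Il10 had other neighbours and looser ones. They were Npm1, which encodes the nucleolar protein nucleophosmin (r = 0.74, 0.63 without the CpG ODN arrays at 8 h), Wdr12 (0.73, 0.52) and Lyar (0.73, 0.61), both nucleolar factors, Rabepk (0.73, 0.50) and Zdhhc13, a palmitoyltransferase (0.73, 0.56). The most opposed were Gsn, which encodes the actin-severing protein gelsolin (-0.72, -0.42), and the lipase gene Lpl (-0.70, -0.42). At 8 h Npm1 stood 1.01 and Wdr12 1.38 above the control ODN, beside 1.78 for Il10. The correlation of Il6 with Il10 was 0.57 over 33 arrays and 0.083 over the 30 arrays without CpG ODN at 8 h. By this measure Il10 ranked 325th among the genes closest to Il6, and Il6 183rd among those closest to Il10.

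**Figure D4:**
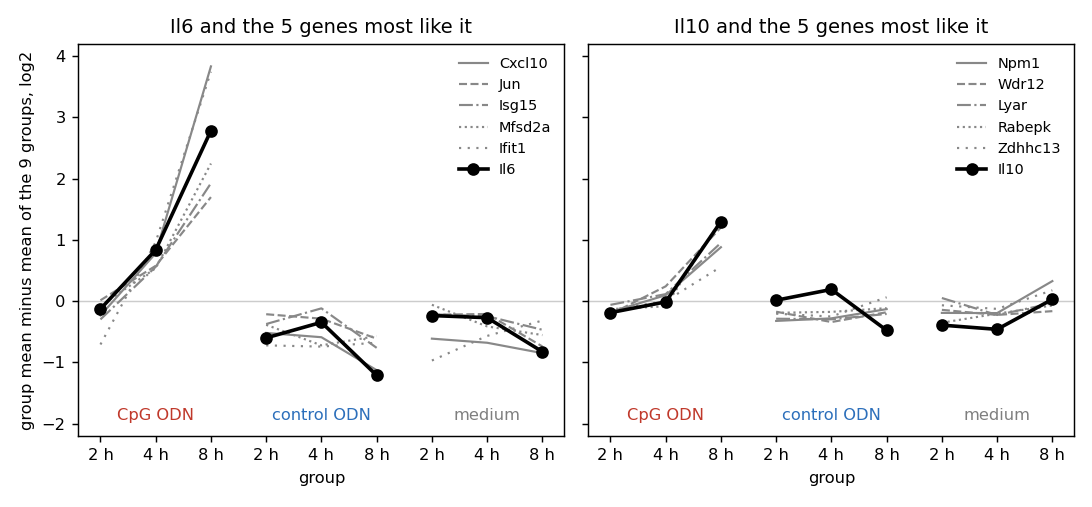
Group means of Il6 (left) and Il10 (right) with the 5 genes most correlated with each over arrays, as log2 ratio minus the mean of the 9 groups; lines join the 3 times within a treatment. Il6 and its neighbours climb with CpG ODN by 4 h and further by 8 h. Il10 and its neighbours move less from 2 to 4 h with CpG ODN and are highest with it at 8 h. Wdr12 moves the most of these from 2 to 4 h (log2 ratio -1.27 to -0.82 before the subtraction).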

How the data were processed

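The arrays used 2 colours and compared Cy5-labelled cDNA of cultured spleen cells with Cy3-labelled Universal Mouse Reference RNA on 33 arrays, with no dye swap, per the labels. The table the authors deposited holds 1 log2 ratio per probe and array; how background, spots and normalization were handled, and the base of the logarithm, is not given in the sources used here. Base 2 was taken from the range of -6.51 to 8.54, and the direction, spleen cells over reference, from the dyes in the labels. Depth is known only as the number of probes with a value, and 3 or 4 arrays a group set the precision.

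Gene names are those of the platform annotation and may be outdated: 14656 have 1 gene symbol, 6 have several and 2058 have none, and only the first were used. Entrez identifiers of 14361 probes were found in the RefSeq table (GRCm38.p6), which changed 0 symbols. A gene was given by its probe with the fewest missing values. Arrays were centred on their medians (-0.08 to 0.02 before centring). Group means of all 9 groups were fitted with limma 3.58.1 in R 4.3.3 and moderated variances, and p-values were adjusted by Benjamini-Hochberg over all genes with at least 2 measured arrays in each compared group. Genes with adjusted p below 0.05 were called; intervals are 95% intervals from the moderated distribution. The fit was checked against lmFit for Il6 and Il10 in the comparison with control ODN at 8 h. Both genes have a value on every array, so that check does not cover missing values. It was also run on simulated arrays that were independent of each other. Il6 minus Il10 was compared by exact permutation over arrays.

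Named genes were Il6 and Il10, up to 4 called members per list with the smallest p against the control ODN at 8 h, up to 2 more called at 4 h, all called signalling genes, the receptor genes, Stat3 and Socs3, up to 2 called markers per cell type, and the 5 most and 2 least correlated genes. The genes, lists and markers were chosen with earlier results of these data known. Older symbols of markers were updated through RefSeq. The alternatives were values without centring, quantile normalization, other rules for missing values, probes and unnamed probes, a fit of the compared groups alone, replicate blocks, array weights, and leaving out the 4 arrays of the lower identifier range or each array in turn.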

Additional observations from a re-analysis of the deposited data

Results flagged for a closer look

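The response to CpG ODN over control ODN differed between times for both cytokines, by the test of the change itself in limma. The Il6 difference was 2.81 larger at 8 h than at 4 h and 3.52 larger at 8 h than at 2 h on the log2 scale. The Il10 difference was 1.98 larger at 8 h than at 4 h and likewise 1.98 larger than at 2 h, the second pair of values resting on adjusted p-values close to the threshold. No array stood apart from its own group by Dixon's criterion in the groups of 4, where the highest ratio was 0.815 for Il6 with CpG ODN at 2 h, below the 95% critical value; groups of 3 were not tested.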

How the results depend on the processing

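Against control ODN at 8 h, Il6 (3.80 to 4.18) and Il10 (1.60 to 2.09, limma adjusted p up to 0.0236) kept direction and call in all 17 alternatives each, which share most arrays. A fit of the compared groups alone left Il6 at 4 h at 1.18 against control ODN (adjusted p = 0.0838) and 1.11 against medium (0.0990), Il10 at 1.27 against medium at 8 h (0.174) and its 2 to 8 h gain at 1.98 (0.0672). Array weights gave Il10 0.60 against medium at 8 h (0.287), where the medium arrays weighed 0.37, 0.28 and 2.06, and turned its 2 to 4 h change to 0.022. Without the lower identifier range, Il6 against medium at 4 h was 1.09 (0.0512), Il10 against medium at 8 h 1.27 (0.0551), and the Il10 changes were 0.15 from 2 to 4 h (turned), 1.98 from 4 to 8 h (0.0750) and 2.13 from 2 to 8 h (0.0684). Quantile normalization turned the uncalled Il10 change from 2 to 4 h (0.0094), Il10rb at 8 h (0.0050) and the Il6 minus Il10 shift against medium at 2 h (0.060). The causes were not tested.

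Leaving out each array in turn, Il10 against medium at 8 h ran from 0.88 to 1.76, its gains from 1.80 to 2.30 (4 to 8 h) and 1.63 to 2.30 (2 to 8 h). Uncalled values that changed sign ran from -0.53 to 0.15 (Il10 against control ODN at 2 h), -0.12 to 0.55 (Il10 against medium at 2 h), -0.35 to 0.33 (its change of difference from 2 to 4 h), -0.17 to 0.50 (its step from 2 to 4 h with CpG ODN), -0.071 to 0.81 (its step from 2 to 8 h in medium, 0.99 with array weights) and -0.0078 to 0.25 (Il6 against medium at 2 h). Against control ODN, Stat3 ran from -0.055 to 0.27, Il6st from -0.66 to 0.043 and Il10rb from -0.030 to 0.39 at 4 h, and Il6st from -0.16 to 0.50, Il10ra from -0.12 to 0.94 and Il10rb from -0.46 to 0.0098 at 8 h. The Il6 minus Il10 shift against medium ran from -0.37 to 0.17 at 2 h and 0.43 to 0.80 at 4 h.

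Counts of called genes also moved. Against control ODN at 4 h (37 genes) they were 21 with genes on all arrays, 9 in the compared groups alone, 75 with weights and 19 to 39 without 1 array. At 8 h (949) they were 626 after quantile normalization, 564 in the compared groups and 557 to 887 without 1 array. Against medium at 2 h (4) they were 8 after quantile normalization, 122 with weights and 4 to 11 without 1 array. At 4 h (21) they were 13 with genes on all arrays, 5 in the compared groups, 84 with weights and 12 without the lower identifier range. At 8 h (1115) they were 315 in the compared groups, 1995 with weights and 690 to 1415 without 1 array.

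The labels number repeats within each group, and same-numbered arrays correlated above 0.1 in 21 of 33 pairs (r from -0.41 to 0.74, median 0.36, over 4612 genes). The other pairs did not, so the numbers were not taken as pairs in the main fit. Most of these r were positive, so some numbers may mark shared experiments, which the labels do not state. A replicate block within each time gave 1489 calls against control ODN at 8 h and 7, 33 and 1698 against medium at 2, 4 and 8 h, called 2 of 7 IL-6 family genes at 8 h against control ODN in place of 1, and left the Il6 step from 2 to 4 h at 1.07 (adjusted p = 0.0603) and the Il10 step from 4 to 8 h at 1.37 (0.0524). With pairs of the same number, the exact sign-flip test of the Il6 minus Il10 shift at 4 h gave 1.39 with p = 0.125, the smallest that 4 pairs allow.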
